A study of Mus musculus with 23 samples.

Results

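Plk2 and 9 further genes that p53 is known to switch on were read in sorted blood stem and progenitor cells of mice with and without the V617F form of the kinase JAK2. The members are Plk2, Plk3, Cdkn1a, Mdm2, Ccng1, Trp53inp1, Phlda3, Sesn2, Bbc3 and Bax, 10 of 24454 genes in the count table, each found by its symbol. They were chosen because a large fall of Plk2 in the V617F cells of the CD41 fractions was already known, so the V617F comparisons in those fractions are given as descriptions without a test. All 10 members passed the filter on low counts in both library protocols, and 14281 and 14467 genes were tested with SMART-Seq v2 and v4.

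The 23 RNA-seq libraries form 8 groups of C57BL/6 bone marrow cells, a wild-type (WT) and an SclCre;V617F (SF1) group of each of 4 populations. Mice of both genotypes were given tamoxifen on 5 days in a row, and cells were sorted 12 weeks later. Tamoxifen starts the Cre recombinase, here driven by regulatory sequence of the blood stem cell gene Scl, which turns on JAK2-V617F. Their ages, the number of mice behind a library and whether WT mice carried Cre were not given in the labels. Where nothing says that libraries came from separate mice, p-values measure the spread between these libraries, which may be technical. LT-HSC are long-term stem cells without lineage markers or CD48 and with Kit, Sca-1 and CD150. CD41-minus and CD41-plus HSC are that same gate divided by CD41, the integrin chain of platelets and their precursors. MkP are megakaryocyte progenitors, which lack Sca-1 and carry Kit, CD150 and CD41. LT-HSC and MkP were prepared with SMART-Seq v2 and the CD41 fractions with v4, so values are not compared between these pairs of populations. Each group had 3 libraries except WT CD41-plus HSC, which had 2. All WT libraries came from females. SF1 LT-HSC came from males, so sex and genotype cannot be told apart there. SF1 MkP came from females, and in the SF1 CD41 fractions number 2 was male and numbers 1 and 3 were female.

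Libraries held between 17.6 and 49.2 M counts (M, 1e6), with a median of 22.2 M. A floor of 3 counts corresponded to 0.0597 to 0.171 CPM, counts scaled to 1e6 of the normalised library total. The WT LT-HSC and WT MkP libraries stood apart, with 11483 to 13805 genes detected against 14634 to 15697 in SF1 libraries of the same protocol, and in WT MkP each library had no count for 1.22 to 4.2% of the genes that average at least 10 CPM. The lowest rank correlation between libraries of WT LT-HSC was 0.801, and 0.937 was the lowest within SF1 LT-HSC. In WT CD41-minus HSC, the mitochondrial leucyl-tRNA synthetase gene Lars2 took 1.38% and 1.68% of the counts in libraries 1 and 3 and 0.101% in library 4. Socs2, a feedback inhibitor that JAK2 signalling induces, averaged 189 CPM in SF1 and 27.1 CPM in WT CD41-minus HSC. It was 1 of 4 genes read as a check on JAK2 and passed as higher in SF1 in both CD41 fractions. In LT-HSC and MkP Socs2 was higher in SF1 without passing (edgeR adjusted p = 0.154 and 0.0545). Cish passed as higher in CD41-minus HSC only, and Jak2 and Pim1 passed between genotypes in no population. Of the sort markers, Itga2b, which encodes CD41, was higher in CD41-plus HSC by a log2 fold change of 2.19 in WT and 2.60 in SF1 (edgeR adjusted p = 3.51e-05 and 5.01e-06). Its list held 9 genes of the gate and of stem cell identity. Of these, Ly6a, Procr, Hlf, Mecom and Fgd5 passed as lower in CD41-plus HSC in both genotypes (edgeR). Slamf1 passed as higher in both, Kit as lower in WT only, and Cd48 did not pass. Between genotypes Itga2b was lower in SF1 CD41-minus HSC (-0.70, edgeR adjusted p = 0.0315). In MkP, Procr and Fgd5 passed as higher in SF1 (edgeR adjusted p = 0.00911 and 0.00372), and the rest of the list did not pass. In WT MkP 1 of the 9 had no count in any library. Cd48, the marker that the gate excludes, was higher in SF1 than in WT in the same fractions in which Plk2 was lower. It stood at 8.19 ± 1.79 against 1.95 ± 0.535 CPM in CD41-minus HSC (SD, n = 3 each), 4.18-fold higher (edgeR adjusted p = 0.00735). In CD41-plus HSC it was at 6.63 ± 2.84 against 1.81 ± 0.486 CPM, 3.64-fold higher (edgeR adjusted p = 0.0499), and that call was lost in 6 of 14 alternatives, among them those without either WT library and without SF1 library 1 or 3. The CD41-minus call was lost in 1 of 16, without both WT libraries high in Lars2. In LT-HSC Cd48 did not pass and pointed the other way (-0.93, edgeR adjusted p = 0.595). Summed granulocyte genes, which stem cells should hold at low levels, ran from 3740 to 6860 CPM in WT LT-HSC and from 475 to 1180 CPM in SF1 LT-HSC. In MkP the same sums were 8330 to 12300 CPM in WT and 1130 to 2570 CPM in SF1, and in the CD41 fractions they stayed between 51.8 and 580 CPM. Some macrophage and stromal or endothelial genes passed as lower in SF1 in the CD41 fractions (edgeR). In CD41-minus HSC these were C1qa, C1qb, C1qc, Adgre1, Vcam1 and Kdr, by 2.06-fold to 117-fold, while Cd68 was 1.69-fold higher. In CD41-plus HSC they were Vcam1 (38.6-fold), Lepr (26.7-fold) and Cxcl12 (21.1-fold). The sums of these 2 lists in the CD41 fractions were 8.67 to 32.6 CPM and 19.9 to 98.3 CPM. What part these signs had in the results was not tested. In sorted populations such as these, a lower level may be fewer cells that hold the RNA or less RNA per cell, and counts cannot tell them apart.

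The transcription factor p53 is kept low by the ubiquitin ligase Mdm2 and is stabilised when DNA is damaged or growth signals are out of balance. It then switches on genes that stop the cell cycle, brake growth or start cell death, and Mdm2 itself, which closes a loop. In blood stem cells this pathway is known for its part in quiescence and in the response to irradiation. Plk2 and Plk3 belong to the polo-like kinases, and unlike Plk1, which drives mitosis, they are known as early response genes that stress and growth factors induce.

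The promoters of Plk2 and Cdkn1a are shown because Plk2 is the member whose level differed most and Cdkn1a is the classical p53 target. Both span 250 bases before to 50 bases after the RefSeq gene start on GRCm38.p6, on the plus strand. The Plk2 window is chr13:110394794-110395093, and the capitals mark TGACGTCA, the cyclic AMP response element, 62 bases before the start. The Cdkn1a window is chr17:29090729-29091028, and the capitals mark a pair of p53 decamers, the 10-base unit of a p53 site, 73 and 51 bases before the start.
Plk2: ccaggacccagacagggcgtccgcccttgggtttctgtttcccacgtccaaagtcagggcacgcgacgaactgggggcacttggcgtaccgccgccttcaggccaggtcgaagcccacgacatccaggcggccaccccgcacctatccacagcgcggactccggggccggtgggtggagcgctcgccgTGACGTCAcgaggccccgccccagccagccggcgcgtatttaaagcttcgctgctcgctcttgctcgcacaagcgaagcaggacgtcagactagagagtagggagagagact
Cdkn1a: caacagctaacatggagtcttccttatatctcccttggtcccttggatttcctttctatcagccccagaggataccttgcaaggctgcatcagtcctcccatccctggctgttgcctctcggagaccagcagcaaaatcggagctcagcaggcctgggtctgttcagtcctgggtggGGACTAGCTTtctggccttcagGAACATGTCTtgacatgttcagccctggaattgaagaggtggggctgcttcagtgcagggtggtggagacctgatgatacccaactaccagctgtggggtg

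Entries for 9 of the 10 members were found in the promoter table, with 12 windows, and Trp53inp1 was not. Both strands were searched. A p53 decamer was found in 4 of these genes, Cdkn1a, Bax, Mdm2 and Ccng1, and in 8.36% of all 32851 windows of this length. A pair of decamers no more than 13 bases apart was found in Cdkn1a alone among the members, and in 0.0731% of all windows. TGACGTCA was found in Plk2 alone among the members, and in 1.79% of all windows. Neither TTCNNNGAA, the STAT motif, nor TGANTCA, the AP-1 motif, was in the windows of the members, while 8.3% and 7.81% of all windows held them. A match describes the letters only, and these windows leave out sites elsewhere, such as introns.

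Plk2, a kinase of stress and growth factor responses, was the most changed member. In CD41-minus HSC it stood at 37.1, 50.9 and 42.8 CPM in WT libraries 1, 3 and 4 and at 2.38, 3.51 and 2.75 CPM in SF1 libraries 1, 2 and 3. In CD41-plus HSC the WT libraries 3 and 4 held 27.7 and 24.4 CPM, and SF1 libraries 1, 2 and 3 held 0.569, 1.59 and 1.31 CPM. Every SF1 library was far below every WT library of its fraction. The SF1 CD41-plus values rest on 10, 32 and 28 counts, and all lie above the floor of 3 counts. The fitted log2 fold change was -3.93 (SE 0.265), a 15.2-fold lower level, in CD41-minus HSC and -4.47 (SE 0.301), 22.1-fold lower, in CD41-plus HSC. Since this fall selected the gene, these values describe it and no p-value is attached. They stayed between -4.12 and -3.80 and between -4.75 and -4.16 under the alternatives run.

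LT-HSC are the same gate before the division by CD41, in libraries that the choice of Plk2 did not use. WT LT-HSC libraries 30, 31 and 32 held 15.9, 97.8 and 120 CPM of Plk2, and SF1 LT-HSC libraries 6, 7 and 8 held 5.26, 3.48 and 4.92 CPM. The groups did not overlap, as in 19.2% of all genes tested, and library 30 was far below the other WT libraries. The log2 fold change was -4.10 (SE 1.42), or 17.1-fold lower in SF1, and it did not pass (edgeR adjusted p = 0.246). With DESeq2 the estimate was -4.12 and it passed (adjusted p = 0.0196). Over the 12 alternatives the log2 fold change ran from -4.56 without WT library 30 to -3.63 without WT library 32, with adjusted p from 0.0196 to 0.608.

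In MkP, the precursors of megakaryocytes, Plk2 was low in both genotypes. WT MkP libraries 30, 31 and 32 held 7.41, 0 and 9.4 CPM, and SF1 libraries 1, 2 and 3 held 3.61, 1.63 and 2.04 CPM. The groups overlapped, and the library at 0 allows up to 0.0748 CPM by counting error. The log2 fold change of -1.21 (SE 1.28) did not pass (edgeR adjusted p = 0.794) and its sign depended on the tool, since limma-voom gave 1.30, while the other 11 alternatives ran from -1.76, without WT library 31, to -0.58, without WT library 32. The effect of SF1 in MkP minus that in LT-HSC was 2.89 (SE 1.81) on the log2 scale and did not pass (edgeR adjusted p = 0.758).

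**Figure D1:**
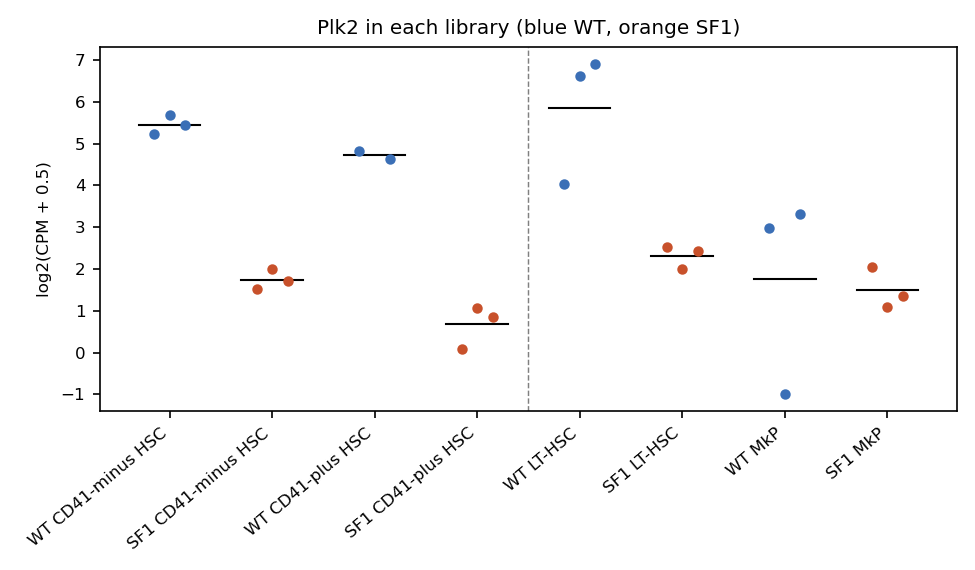
Plk2 as log2(CPM + 0.5) in each of the 23 libraries (points; blue WT, orange SF1), with the mean of these log2 values as a bar; SMART-Seq v4 groups stand left of the dashed line and v2 groups right of it. The SF1 libraries lie below the WT libraries in both CD41 fractions and in LT-HSC, while in MkP the groups overlap and 1 WT library holds 0 counts.

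The order of Plk2 levels in the v4 groups was WT CD41-minus (43.6 ± 6.96 CPM, SD, n = 3), WT CD41-plus (26.1 ± 2.32 CPM, n = 2), SF1 CD41-minus (2.88 ± 0.576 CPM, n = 3) and SF1 CD41-plus HSC (1.16 ± 0.53 CPM, n = 3). No neighbours in that order overlapped. In the v2 groups it was WT LT-HSC (78 ± 54.9 CPM), WT MkP (5.6 ± 4.95 CPM), SF1 LT-HSC (4.55 ± 0.944 CPM) and SF1 MkP (2.42 ± 1.05 CPM), with n = 3 each. Of these neighbours only WT LT-HSC and WT MkP did not overlap.

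Plk2 also differed between populations within a genotype. It was lower in CD41-plus than in CD41-minus HSC in both genotypes, with a log2 fold change of -0.74 (SE 0.261, edgeR adjusted p = 0.0443) in WT and -1.28 (SE 0.293, edgeR adjusted p = 0.00505) in SF1. In WT it no longer passed without CD41-minus library 3 or without either CD41-plus library, and edgeR adjusted p was 0.0501 when only the groups compared were fitted; adjusted p ran from 0.00786 to 0.24 over the alternatives. In SF1 it passed under all 15 alternatives, with adjusted p from 6.16e-05 to 0.0229. The SF1 effect differed between the fractions by -0.54 (SE 0.388). Both effects come from the comparisons that selected Plk2, so this difference is a description and no p-value is attached. In WT, MkP were lower than LT-HSC by a log2 fold change of -3.80 (SE 1.40), without overlap but without passing (edgeR adjusted p = 0.104), and the call was gained with DESeq2 (adjusted p = 0.00846) and without MkP library 31 (edgeR adjusted p = 0.0384). In SF1 the same comparison gave -0.91 (SE 1.27) with overlapping groups (edgeR adjusted p = 0.967).

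Per kilobase of gene length, the scale on which genes can be compared, Plk2 ranked 4 of 10 members in WT CD41-minus HSC, at 15.6 ± 2.48 CPM per kb, after Bax (45.9 ± 12.5), Ccng1 (39.2 ± 6.93) and Mdm2 (34.1 ± 6.13). Its neighbours in that order, Mdm2 above and Sesn2 below (13.3 ± 3.14 CPM per kb), were respectively beyond and within the SDs. In SF1 CD41-minus HSC it was the lowest member, at 1.03 ± 0.206 CPM per kb, under Cdkn1a at 1.4 ± 0.0724. Bax was the highest member per kilobase in all 8 groups.

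Genes around Plk2 were read to see whether the fall extended along the chromosome. The 5 nearest tested genes on each side lie 37.8 kb to 2.2 Mb away, Gapt, Pde4d, Depdc1b, Elovl7 and Ercc8 on one side and Gpbp1, Mier3, Map3k1, Il6st and Ddx4 on the other. None of the 10 passed between SF1 and WT in CD41-minus HSC, where 13.4% of all genes passed. Their log2 fold changes there ran from -0.77 to 0.60 and 3 had an unadjusted p under 0.05. In CD41-plus HSC, where 1.16% of all genes passed, none passed either, with a range of -0.50 to 0.44 and 1 under 0.05 (edgeR, smallest adjusted p 0.0857 and 0.434). Between the fractions 5 of the 10 passed in WT, 2 higher and 3 lower, and 6 in SF1, 2 higher and 4 lower. Of all genes, 34% passed in WT and 34.3% in SF1, and nothing is read from these counts of neighbours. Gapt, the nearest, averaged 2.6 ± 0.929 CPM in WT and 1.8 ± 0.508 CPM in SF1 CD41-minus HSC.

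Among 11179 genes with a mean of at least 5 CPM, the 5 whose log2 level followed Plk2 most closely over the 11 v4 libraries were Runx1t1 (r = 0.977), Chd7 (r = 0.964), Car1 (r = 0.962), Cyp26b1 (r = 0.955) and Ndn (r = 0.954). These correlations are descriptions, since the libraries share the genotype split and were picked over for the highest values. Over the 12 v2 libraries, which the choice of these genes did not use, r was 0.571, 0.569, 0.055, 0.858 and 0.383 in the same order. Cyp26b1, a retinoic acid degrading enzyme, averaged 17.4 CPM in WT and 0.502 CPM in SF1 CD41-minus HSC. In LT-HSC it was at 2.05 ± 1.53 CPM in WT and 0.194 ± 0.235 CPM in SF1 and did not pass (edgeR adjusted p = 0.5). Car1, a carbonic anhydrase of early erythroid cells, was the only one of the 5 to pass in LT-HSC, with a log2 fold change of -6.38 (SE 0.977, edgeR adjusted p = 0.0376). That call was lost in 6 of 12 alternatives, among them those without WT library 30 or 32 and without each SF1 library. In MkP Car1 was lower (-4.91, edgeR adjusted p = 0.0198), without passing when SF1 library 1 or 2 was left out. Chd7, a chromatin remodeller, was higher in SF1 MkP (edgeR adjusted p = 0.015), against the direction of Plk2, at 2.79 ± 1.19 CPM against 0.0167 ± 0.0145 CPM in WT, and did not pass without SF1 library 2.

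Plk3, the other stress-responsive polo-like kinase, did not share the fall of Plk2. In CD41-minus HSC it was at 4.58, 4.81 and 3.93 CPM in WT and 5.5, 2.74 and 4.38 CPM in SF1, and in CD41-plus HSC at 6.4 and 6.42 CPM in WT and 10.4, 2.19 and 6.42 CPM in SF1. The genotypes overlapped in both fractions, with log2 fold changes of -0.07 (SE 0.424) and -0.02 (SE 0.464). In LT-HSC WT libraries held 0.569, 3.96 and 0.179 CPM and SF1 libraries 5.76, 4.83 and 5 CPM. In MkP WT libraries held 5.8, 0.424 and 0 CPM and SF1 libraries 8.63, 9.38 and 8.09 CPM. SF1 was above WT without overlap in both populations, but the WT libraries were scattered and neither difference passed, at 1.72 (SE 1.59, edgeR adjusted p = 0.78) and 2.07 (SE 1.60, edgeR adjusted p = 0.66). Between the fractions in SF1 Plk3 gave 0.58 (SE 0.419) and did not pass (edgeR adjusted p = 0.308), and without CD41-plus library 2, its lowest library, it gave 0.99 and passed (edgeR adjusted p = 0.0259). The gene overlaps Tctex1d4, which is also in the count table, so its counts are uncertain where reads of the pair could not be told apart.

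Of the other polo-like kinases, Plk1 and Plk4, which act in mitosis and centriole duplication, were higher in CD41-plus than in CD41-minus HSC. Plk1 rose by a log2 fold change of 1.79 in WT and 1.97 in SF1 (edgeR adjusted p = 0.000311 and 4.82e-05), and Plk4 by 1.73 and 1.46 (edgeR adjusted p = 0.000205 and 0.000167). Plk1 also rose in MkP over LT-HSC in WT, by 1.65 (edgeR adjusted p = 0.0137). Neither passed between SF1 and WT in the 4 populations. Plk5 was tested in the v4 libraries only, where its group means were 0.162 to 0.349 CPM, and did not pass.

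Taking the members by role, the cell cycle inhibitor Cdkn1a was near the bottom of the list per kilobase in the CD41 fractions. It was at 2.98, 3.83 and 3.42 CPM in WT and 2.85, 3.01 and 2.72 CPM in SF1 CD41-minus HSC, and at 4.2 and 4.61 CPM in WT and 3.47, 5.23 and 4.64 CPM in SF1 CD41-plus HSC. The genotypes overlapped in both fractions, with log2 fold changes of -0.25 (SE 0.229) and 0.02 (SE 0.251). In LT-HSC it was at 29.3, 15 and 8.12 CPM in WT and 9.74, 10.7 and 5.75 CPM in SF1. The fitted level was 2-fold lower in SF1 and did not pass (edgeR adjusted p = 0.661), and the groups overlapped. Over the fractions, Cdkn1a was higher in SF1 CD41-plus HSC by 0.64 (SE 0.227, edgeR adjusted p = 0.0447). With the replicate number as a block it was 0.62 and did not pass (edgeR adjusted p = 0.0552). The call was also lost without any single SF1 library other than CD41-plus library 1, with edgeR adjusted p from 0.0886 to 0.142. In WT the same comparison gave 0.37 (SE 0.252) and did not pass (edgeR adjusted p = 0.271).

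Mdm2, the ligase that removes p53, varied little in the CD41 fractions. Its group means were 106 ± 19 CPM in WT and 112 ± 6.99 CPM in SF1 CD41-minus HSC, and 112 ± 6.73 CPM in WT and 107 ± 7.6 CPM in SF1 CD41-plus HSC. The log2 fold changes were 0.09 (SE 0.130) and -0.06 (SE 0.146). In LT-HSC it was at 16.7, 112 and 107 CPM in WT and 71.8, 39.6 and 83.8 CPM in SF1, with library 30 again apart. That difference, -0.27 (SE 0.599), did not pass (edgeR adjusted p = 0.95).

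Ccng1, cyclin G1, acts in the Mdm2 loop, and Trp53inp1 promotes cell cycle arrest and death. Both stood higher in SF1 than in WT CD41-minus HSC without overlap. Trp53inp1 was at 50.4, 46.9 and 73.2 CPM in WT and 86, 148 and 109 CPM in SF1, a log2 fold change of 1.01 (SE 0.264). Ccng1 was at 127, 119 and 164 CPM in WT and 166, 198 and 182 CPM in SF1, a log2 fold change of 0.41 (SE 0.126). Without WT libraries 1 and 3, which were high in Lars2, these values shrank to 0.64 for Trp53inp1 and 0.14 for Ccng1, with 1 WT library left, while that of Plk2 stayed within the range given above. In CD41-plus HSC the genotypes overlapped for both genes: Trp53inp1 was at 45.6 and 29.6 CPM in WT and 23.6, 43.2 and 28.2 CPM in SF1, and Ccng1 at 138 and 140 CPM in WT and 139, 145 and 142 CPM in SF1. The SF1 effect on Trp53inp1 in CD41-plus HSC minus that in CD41-minus HSC was -1.26 (SE 0.394). For Ccng1 the same difference was -0.39 (SE 0.189). Neither was past the threshold after adjustment over all genes. Both were past it, at -1.48 and -0.54, when WT CD41-minus library 4, the one low in Lars2, was left out. These differences use the comparisons on which the members were chosen, so they are descriptions without a p-value.

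Within SF1, Trp53inp1 fell from CD41-minus to CD41-plus HSC by 1.85 on the log2 scale (SE 0.271, edgeR adjusted p = 0.000288), the largest change of a member between the fractions, and it passed in every alternative run. Ccng1 fell by 0.36 (SE 0.126, edgeR adjusted p = 0.0433) and lost the call without SF1 CD41-minus library 2 or 3 or without each SF1 CD41-plus library. In WT the changes were -0.60 (SE 0.300) and 0.03 (SE 0.141), and neither passed (edgeR adjusted p = 0.139 and 0.902). In LT-HSC, Trp53inp1 was at 2.72, 2.04 and 16.7 CPM in WT and 10.9, 7.27 and 43.2 CPM in SF1, so that the groups overlapped (edgeR adjusted p = 0.788).

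Phlda3, which holds back AKT, and Sesn2, which holds back mTOR signalling, are the growth brakes of the list. Phlda3 was low, at 1.09 to 4.79 CPM in the v4 libraries, with overlapping genotypes in CD41-minus HSC. In CD41-plus HSC both WT libraries, 4.79 and 4.01 CPM, were above the SF1 range of 3.52 to 3.79 CPM, and the log2 fold change was -0.27 (SE 0.344). Between the fractions in SF1 it was 0.79 (SE 0.318) and did not pass (edgeR adjusted p = 0.071). With the replicate number as a block it was 0.86 and passed (edgeR adjusted p = 0.0489), as it did with DESeq2 (adjusted p = 0.0465) and limma-voom (adjusted p = 0.0406). Without SF1 CD41-minus library 2 it passed too (edgeR adjusted p = 0.043).

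Sesn2 was at 34.2, 44.2 and 27.6 CPM in WT and 21.9, 34.5 and 29.2 CPM in SF1 CD41-minus HSC, and at 18.5 and 19.8 CPM in WT and 15.1, 20 and 15.2 CPM in SF1 CD41-plus HSC. The genotypes overlapped in both fractions, while the fractions did not overlap in either genotype. Sesn2 was lower in CD41-plus HSC by a log2 fold change of -0.88 in WT (SE 0.235, edgeR adjusted p = 0.0141) and -0.77 in SF1 (SE 0.207, edgeR adjusted p = 0.0128). The WT call was lost without either CD41-plus library, and the SF1 call without CD41-minus library 2 and without CD41-plus library 1 or 3. Without both WT CD41-minus libraries high in Lars2 the WT change was -0.53, with 1 WT CD41-minus library left. In LT-HSC, Sesn2 was at 24, 73.1 and 43.9 CPM in WT and 15.3, 19.6 and 23.1 CPM in SF1, without overlap, and at -1.28 (SE 0.776) did not pass (edgeR adjusted p = 0.57).

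Bbc3, which encodes Puma, and Bax are the members that start cell death at mitochondria. Bax was at 33.3, 34 and 52.4 CPM in WT and 54.1, 48.2 and 54.7 CPM in SF1 CD41-minus HSC, and at 72.5 and 76.2 CPM in WT and 96.8, 72.2 and 88.6 CPM in SF1 CD41-plus HSC. It was higher in CD41-plus HSC without overlap in both genotypes, by 0.90 in WT (SE 0.189, edgeR adjusted p = 0.0046) and 0.71 in SF1 (SE 0.171, edgeR adjusted p = 0.00652). The WT call was lost without CD41-plus library 4, where the change was 0.86 with 1 WT CD41-plus library left. The WT change was 0.50 without both WT CD41-minus libraries high in Lars2, with 1 WT CD41-minus library left. Bbc3 was at 29.3, 27.1 and 16.5 CPM in WT CD41-minus and 16.7 and 12.3 CPM in WT CD41-plus HSC. It passed as lower, at -0.75 (SE 0.238, edgeR adjusted p = 0.0299), although 1 library overlapped, and the call was lost without CD41-minus library 1 or 3 or without either CD41-plus library. Without both WT CD41-minus libraries high in Lars2 the change of Bbc3 was -0.20. In SF1 Bbc3 stood at 18.2, 21.4 and 19.1 CPM against 14.2, 16.8 and 14.7 CPM, a change of -0.36 (SE 0.208) that did not pass (edgeR adjusted p = 0.2).

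In LT-HSC, Bax was at 237, 107 and 89.8 CPM in WT and 78.8, 90.7 and 57.7 CPM in SF1, with library 30 highest. The fold change of -0.93 (SE 0.370) did not pass (edgeR adjusted p = 0.317). In MkP it was at 98.4, 87.2 and 83.4 CPM in WT and 106, 98 and 112 CPM in SF1, overlapping by 1 library (edgeR adjusted p = 0.892). Bbc3 was at 2.24 to 7.12 CPM in the v2 libraries and overlapped between genotypes in both populations.

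**Figure D2:**
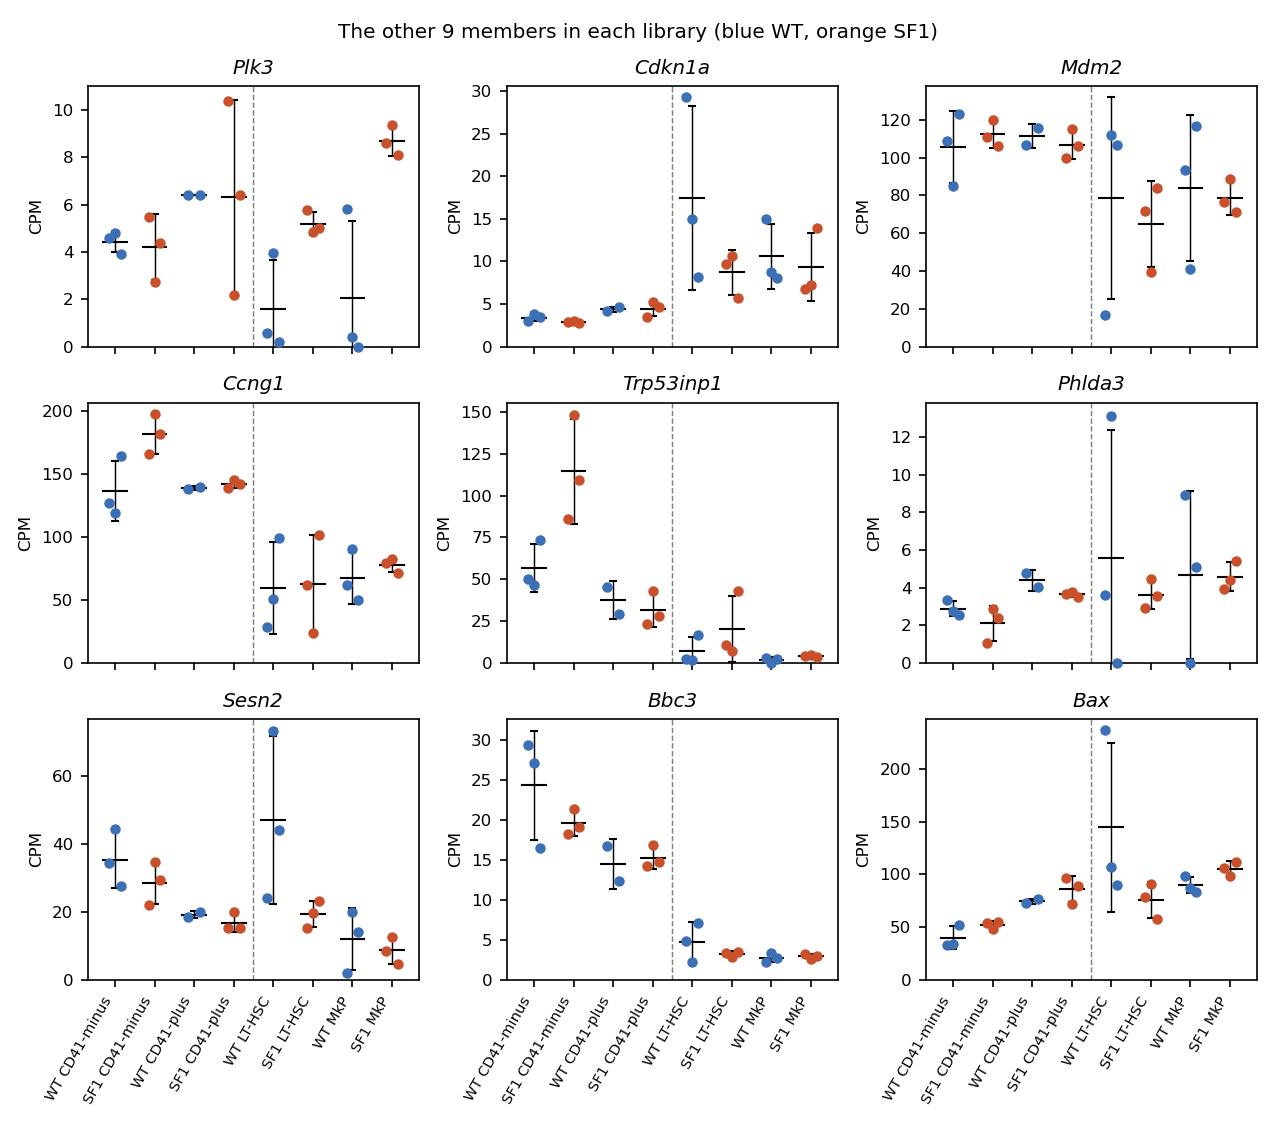
CPM of the other 9 members in each library (points; blue WT, orange SF1), with the group mean (bar) and SD (whiskers, not drawn below 0), on an axis that starts at 0 for each gene; SMART-Seq v4 groups stand left of the dashed line. Trp53inp1 and Ccng1 are higher in SF1 CD41-minus HSC, and Bax is higher in CD41-plus than in CD41-minus HSC in both genotypes. For Mdm2, Phlda3 and Sesn2 the SD is larger in WT LT-HSC and WT MkP than in any other group. For Trp53inp1, Bbc3, Plk3 and Ccng1 it is largest in a group other than these.

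Counted together, 3 of the 10 members were past the threshold between SF1 and WT in CD41-minus HSC, Plk2 lower and Ccng1 and Trp53inp1 higher, where 13.4% of all genes were, 5.48% higher and 7.93% lower. In CD41-plus HSC it was Plk2 alone, where 1.16% of all genes were. Since the members were chosen on these comparisons, nothing is read from the counts. The CD41-minus count was 5 without WT library 4, and 1, Plk2, when any other single library was left out.  Groups did not overlap for 3 members in CD41-minus HSC, against 30.2% of all genes, and for 2 in CD41-plus HSC, Plk2 and Phlda3, against 41.7%.

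In the libraries the choice did not use, no member passed between SF1 and WT. That was 0 of 10 in LT-HSC, where 0.063% of all genes passed, and 0 of 10 in MkP, where 1.75% passed (edgeR, adjusted p under 0.05). By unadjusted p under 0.05 there were 2 in LT-HSC, Plk2 and Bax, and 0 in MkP. DESeq2 called Plk2 in LT-HSC and none in MkP, and limma-voom called none in either. The median log2 fold change of the members was -0.58 in LT-HSC, against -0.05 over all genes, and 0.03 in MkP, against 0.08. Between MkP and LT-HSC no member passed either, in WT, where 8.9% of all genes passed, or in SF1, where 1.09% passed, with 2 members under an unadjusted p of 0.05 in WT, Plk2 and Sesn2, and 0 in SF1. DESeq2 called those 2 in WT. Groups did not overlap for 3 members between genotypes in LT-HSC (19.2% of all genes), 2 between genotypes in MkP (31%), 2 between MkP and LT-HSC in WT (20.5%) and 4 in SF1 (41.4%). No member passed for the difference of the SF1 effect between MkP and LT-HSC (0.455% of all genes), where unadjusted p was under 0.05 for Bax. For the difference between the CD41 fractions no member was past the threshold (0% of all 14467 genes with edgeR, 6 genes with DESeq2). That difference does use the comparisons on which the members were chosen, so nothing is read from it.

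**Figure D3:**
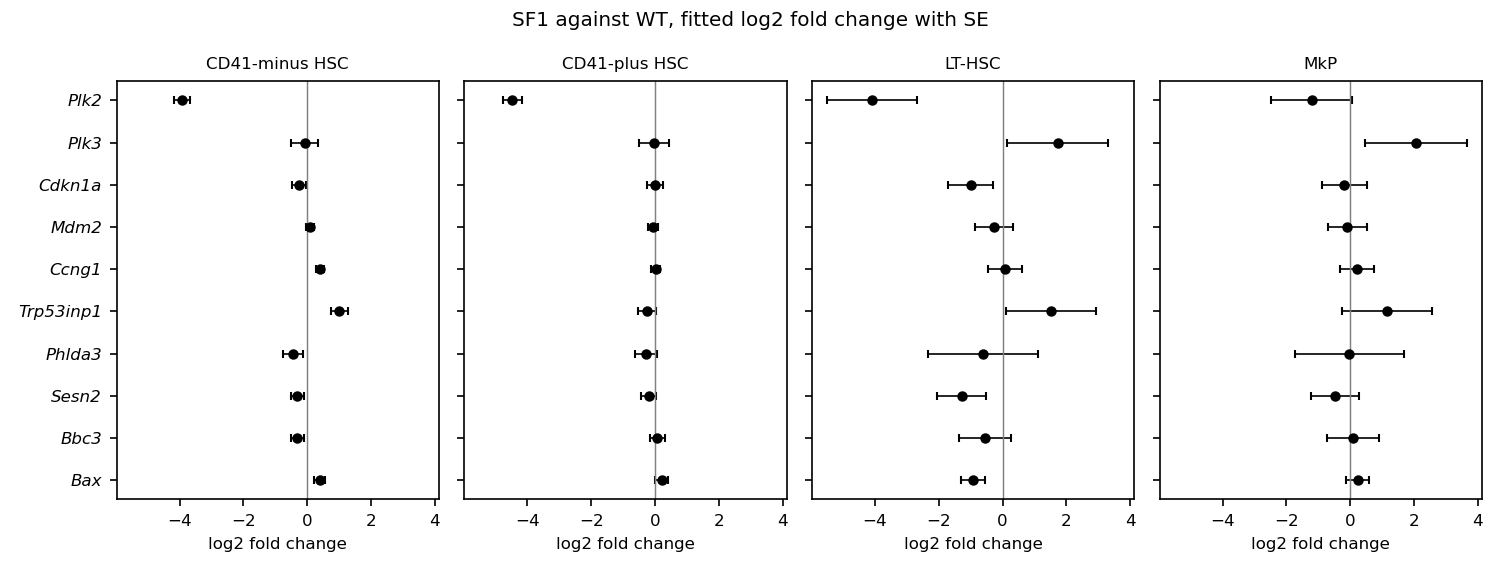
Fitted log2 fold change, SF1 against WT, of the 10 members in the 4 populations (points) with their SE (whiskers). Plk2 lies near -4 in both CD41 fractions and in LT-HSC, where its SE of 1.42 is several times that in the CD41 fractions, and the other members lie within 1.01 of 0 in the CD41 fractions.

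Between the CD41 fractions, 4 of 10 members passed in WT, where 34% of all genes did (15.7% higher and 18.2% lower), and 6 of 10 in SF1, where 34.3% did (16.4% higher and 17.9% lower). Plk2 and Sesn2 were lower and Bax was higher in CD41-plus HSC in both genotypes. Bbc3 was lower in WT, and Cdkn1a higher and Ccng1 and Trp53inp1 lower in SF1. These fits leave out the pairing of the SF1 libraries. With the replicate block Cdkn1a did not pass in SF1 and Phlda3 did (edgeR adjusted p = 0.0552 and 0.0489). The WT count is near the share of all genes and fell to between 0 and 4 when 1 library was left out, with 0 without CD41-plus library 4. The fractions did not overlap for 7 members in WT, where 56.8% of all genes did not, and for 8 in SF1, where 56.1% did not. The 2 comparisons rest on separate libraries, but whether a member's change differed between genotypes is the difference given above. No member was past the threshold there, and nothing is read from it.

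**Figure D4:**
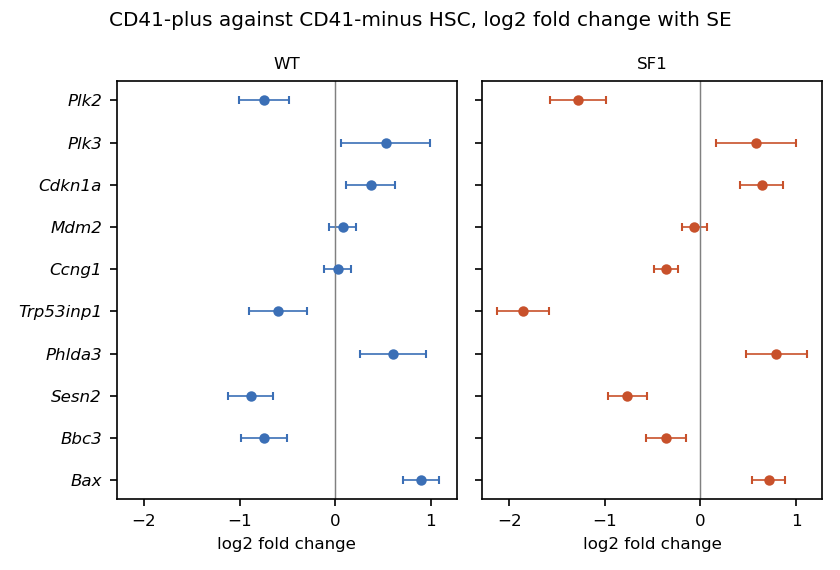
Fitted log2 fold change, CD41-plus against CD41-minus HSC, of the 10 members in WT (left) and SF1 (right), with SE as whiskers. Plk2 and Sesn2 lie below 0 and Bax above 0 in both genotypes, and Trp53inp1 is lowest in SF1, at -1.85.

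A longer list of 37 p53 targets outside the members, all tested, had medians near those of all genes between genotypes in the CD41 fractions. In CD41-minus HSC 0 were higher and 2 were lower, where 13.4% of all genes passed, with a median log2 fold change of 0.04 against -0.01 over all genes. The 2 were Cd82, a membrane tetraspanin, at -0.66 (edgeR adjusted p = 0.0481) and Ephx1, an epoxide hydrolase, at -0.68 (edgeR adjusted p = 0.0448). That count was 7 without WT library 4, 1 without WT library 1 and 0 without any other single library. In CD41-plus HSC none passed and the median was 0.07 against 0.03. Summed over the list, libraries held 1480 to 1500 CPM in WT and 1440 to 1550 CPM in SF1 CD41-minus HSC, and 1340 CPM in both WT and 1320 to 1390 CPM in SF1 CD41-plus HSC.

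In LT-HSC none of the 37 passed, with a median of -0.27 against -0.05. In MkP Cd82 was lower in SF1 (-2.30, edgeR adjusted p = 0.035), at 3.18 ± 0.91 CPM against 15.6 ± 11.3 CPM. Gdf15, a stress cytokine, was at 0 in all 3 WT MkP libraries and at 0.774 ± 0.138 CPM in SF1, at least 9.35-fold higher against a floor of 3 counts per library (edgeR adjusted p = 0.0453). Gdf15 did not pass whichever of the 6 MkP libraries was left out, and Cd82 did not pass without WT library 30 or when an SF1 library was left out.

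Between the CD41 fractions, 7 of the 37 were higher and 5 lower in WT CD41-plus HSC, and 7 higher and 7 lower in SF1. These counts are near the share of all genes, of which 34% passed in WT and 34.3% in SF1. In both genotypes the smallest adjusted p belonged to Psrc1, a microtubule gene (1.62 in WT and 1.55 in SF1), Cd82 (-1.99 and -2.32), the DNA repair gene Xpc (-0.84 and -1.09) and Trp53cor1, the lincRNA-p21 gene (-1.31 in WT and 2.83-fold lower in SF1). The edgeR adjusted p of these was between 1.48e-05 and 0.00656. The WT count was 4 to 14 when 1 library was left out. Cd82 was also lower in MkP than in LT-HSC, at -3.70 in WT and -4.99 in SF1 (edgeR adjusted p = 0.00129 and 0.000824). Among the 37, Apaf1, the apoptosome core, was higher (3.86, edgeR adjusted p = 0.0405) and Gdf15 lower, at least 45.5-fold, in WT MkP (edgeR adjusted p = 0.00807), and Xpc was lower in SF1 MkP (-1.81, edgeR adjusted p = 0.0475). Apaf1 did not pass in 7 of 13 alternatives, among them those without WT LT-HSC library 30 or 32 and without WT MkP library 30 or 31, and Xpc did not pass whichever single library was left out.

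Trp53, which encodes p53, stood at 299 ± 57.9 CPM in WT and 256 ± 5.03 CPM in SF1 CD41-minus HSC and at 252 ± 3.47 CPM in WT and 295 ± 4.19 CPM in SF1 CD41-plus HSC, and did not pass in any comparison. Of 19 tested genes of p53 and its regulators, 3 passed between SF1 and WT in CD41-minus HSC, near the share of all genes, 13.4%. The checkpoint kinases Chek1 and Chek2 were higher, by 0.74 and 0.61 (edgeR adjusted p = 0.0496 and 0.028), and the kinase Hipk2 was lower, by -0.91 (edgeR adjusted p = 0.0269). That count was 8 without WT library 4 and 0 without WT library 3 or any SF1 library. None passed in CD41-plus HSC, LT-HSC or MkP, where 1.16%, 0.063% and 1.75% of all genes passed. Between the fractions, Chek1 and Chek2 were higher in CD41-plus HSC, by 1.22 and 0.94 in WT and 0.98 and 0.71 in SF1, and passed under all alternatives run. Brd7 was higher and Trp53bp1 and Ep300 were lower in both genotypes as well, Rpl5 was higher and Crebbp lower in WT, and Rpl11 was higher in SF1. In all, 4 of the 19 were higher and 3 lower in WT, and 4 higher and 2 lower in SF1. These counts are near the shares of all genes, 34% in WT and 34.3% in SF1. Leaving out 1 library gave 2 to 10 of these genes in WT, 2 without either CD41-plus library, and 2 to 6 in SF1, 2 without CD41-plus library 1. Cdkn2a, which encodes Arf, was at or near 0, with at most 0.0899 CPM.

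**Figure D5:**
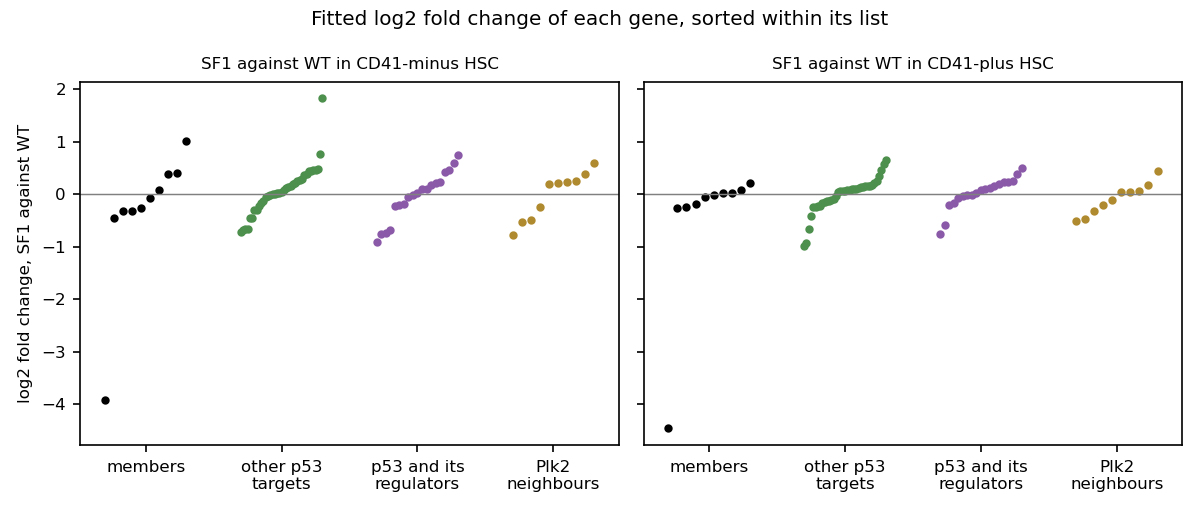
Fitted log2 fold change, SF1 against WT, of each gene, sorted from low to high within the members, the other p53 targets, p53 and its regulators, and the 10 neighbours of Plk2, in CD41-minus (left) and CD41-plus HSC (right). Plk2, at -3.93 and -4.47, lies apart from all other points, and the other genes spread around 0.

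Some immediate early genes, which growth factors and cell handling induce within minutes, were lower in SF1 in the CD41 fractions, where Plk2 was lower too, but not in LT-HSC or MkP. Summed over 20 genes, libraries held 2520 to 3300 CPM in WT and 1340 to 2060 CPM in SF1 CD41-minus HSC, and 2040 to 2520 CPM in WT and 1170 to 1700 CPM in SF1 CD41-plus HSC. Of 18 tested, 7 were lower and 0 higher in CD41-minus HSC, where 7.93% of all genes were lower and 5.48% higher. The median was -0.68 against -0.01 over all genes. Among the 7 were Egr1 (-1.79, edgeR adjusted p = 0.0114), Junb (-1.31, edgeR adjusted p = 0.00866) and Klf4 (-1.99, edgeR adjusted p = 0.0202). In CD41-plus HSC 3 were lower, Egr1 (-1.96), Junb (-1.35) and Zfp36, where 1.16% of all genes passed. Their edgeR adjusted p was between 0.0241 and 0.0293, and the median of the list was -0.82 against 0.03. Leaving out 1 library gave 1 to 8 in CD41-minus HSC, lowest without SF1 library 3, and 1 in CD41-plus HSC without SF1 library 1 and 0 without any other. The other alternatives gave 0 to 10 and 0 to 6. In LT-HSC none passed, the median was 0.01 and the sums overlapped, at 2100 to 3480 CPM in WT and 1000 to 3620 CPM in SF1. In MkP none passed either, and the median was on the other side, at 1.10 against 0.08 over all genes, with 13 of 18 above 0; the sums overlapped, at 1340 to 1450 CPM in WT and 773 to 1610 CPM in SF1. Of 10 erythroid genes, 7 were lower in SF1 in CD41-minus HSC (edgeR), where 7.93% of all genes were lower. In CD41-plus HSC 4 were lower, where 1.16% of all genes passed. Without passing, Hbb-bs and Hbb-bt were above 0 in CD41-minus HSC (0.67 and 0.66), and Hbb-bt and Klf1 in CD41-plus HSC (0.40 and 0.05). The erythroid sums overlapped between genotypes. They were 1800 to 3950 CPM in WT and 1720 to 1880 CPM in SF1 CD41-minus HSC, and 2430 to 2540 CPM and 2270 to 2440 CPM in CD41-plus HSC. Both lists, and the list that holds Cd48, were chosen with earlier results of these data known. Their counts and p-values between SF1 and WT in the CD41 fractions are therefore descriptions. The part of either list, or of Cd48, in the fall of Plk2 was not tested.

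Among the SF1 CD41 libraries, number 2 was the male and held the highest level of 8 members in both fractions, Plk2, Cdkn1a, Mdm2, Ccng1, Trp53inp1, Phlda3, Sesn2 and Bbc3, and the lowest of the other two, Plk3 and Bax. Plk2 there was 3.51 and 1.59 CPM, against 2.75 CPM or less and 1.31 CPM or less in the female libraries. With 1 male, sex and the single library cannot be told apart. Without the libraries labelled male, Plk2 remained lower in SF1 in both fractions, and the count of members past the threshold in CD41-minus HSC was 1. After the group means were removed, the log2 levels of Cdkn1a (r = 0.889) and Trp53inp1 (r = 0.646) went with those of Plk2 over the 11 v4 libraries and Plk3 went against them (r = -0.8), as a description in which number 2 takes part in both fractions. Over the 12 v2 libraries the same values were -0.302, 0.682 and 0.209.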

How the data were processed

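Gene counts of 23 RNA-seq libraries were analysed. The authors deposited a single table of raw read counts, with an Entrez identifier, a symbol and a length for each gene per the file headers. Reads were aligned to mm10 with STAR 2.5.2a, and R 3.4.2 and limma are named, per the submitters' processing notes. The counting tool, annotation and strand setting are not given in the sources used here. RNA with an integrity number over 8 was used, per the labels. Identifiers were matched to RefSeq genes of GRCm38.p6 (24374 of 24454, and 11 had no symbol).

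Each protocol was fitted apart in R 4.3.3 with edgeR 4.0.16 (TMM scaling, filterByExpr on groups, 1 mean per group, quasi-likelihood F test), and p-values were adjusted by Benjamini-Hochberg over all genes of each of 10 contrasts, with a threshold of 0.05. All groups of a protocol share 1 estimate of spread. CPM use the TMM-scaled totals, values per kb the deposited gene length, and log2 levels a pseudocount of 0.5 CPM. Floors of 3 counts cover counting error only. The fit was tested on simulated data.

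The members and gene lists were chosen with earlier results of these data known. For genes of these lists, p-values between SF1 and WT in the CD41 fractions are therefore descriptions and not independent tests. Named were all members, passing genes of the regulators and polo-like kinases, the 4 smallest adjusted p per comparison of the wider p53 list, 5 neighbours per side and the 5 genes most like Plk2; other lists are given by counts and the genes a result turns on. Alternatives were DESeq2 1.42.0, limma-voom (limma 3.58.1), scaling by RLE, testing without the low-count filter, requiring 5 CPM in at least 3 libraries, only the groups compared, a replicate block, sex as a covariate, no male libraries and each library left out. Leaving out both WT CD41-minus libraries high in Lars2 was chosen after seeing the data.

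Whether equal numbers mark paired samples was checked by the correlation of deviations from group means across genes. It was 0.377, 0.504 and 0.369 for SF1 CD41-minus and CD41-plus libraries of equal number, which were taken as paired. The main fits hold no pairing, and only the replicate block takes it into account. For WT libraries of equal number across populations the correlation was between -0.0359 and 0.065. A value near 0 cannot tell whether libraries share a mouse, so pairing is not known there. Between WT and SF1 CD41-minus libraries of equal number it was -0.145 and -0.0401, so these share only a number. Motifs were searched on both strands of RefSeq promoter windows.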

Additional observations from a re-analysis of the deposited data

How the results depend on the processing

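The tested comparisons rest on 2 or 3 libraries a group, and in LT-HSC and MkP the wide spread within WT, at a depth of at least 17.6 M counts, goes with SEs above 1 on the log2 scale for Plk2, Plk3, Trp53inp1 and Phlda3. The number of members past the threshold was the same, or within 1.5 times, under all alternatives run for the SF1 comparison in MkP (0) and in CD41-plus HSC (1) and for the difference between MkP and LT-HSC (0). DESeq2 gave 1 in LT-HSC (Plk2) and 2 between MkP and LT-HSC in WT (Plk2 and Sesn2). Fitting only the groups compared gave 1 between MkP and LT-HSC in SF1 (Trp53inp1), 1 between SF1 and WT in CD41-minus HSC and 2 between the CD41 fractions in WT. In CD41-minus HSC the count was 1 without the libraries labelled male, and without both WT libraries high in Lars2 it was 1 there and 0 between the fractions in WT. Leaving out 1 library gave 1 to 5 between SF1 and WT in CD41-minus HSC, 0 to 4 between the fractions in WT, 3 to 5 in SF1 (3 without CD41-plus library 3), 0 to 1 between MkP and LT-HSC in WT, and 0 to 2 for the difference between the fractions, 2 being Ccng1 and Trp53inp1 without WT CD41-minus library 4. The cause of these changes was not tested. Where a group fell to 1 library, that library was assumed to vary like the others.

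Between SF1 and WT, where libraries share only a number, the replicate block gave 5 members in CD41-minus HSC in place of 3, adding Bbc3 (lower) and Bax (higher). For Plk2 it gave -4.11 in CD41-minus and -4.60 in CD41-plus HSC, and beside Cdkn1a and Phlda3 in SF1 it changed no other call of a member in the tests. Whether WT libraries of equal number came from the same mouse is not known. For them the block moved the fall of Plk2 from LT-HSC to MkP to -4.24 (edgeR adjusted p = 0.623). No paired analysis was possible because the groups share no numbers for SF1 against WT in LT-HSC and MkP and for MkP against LT-HSC in SF1.

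Of single values, limma-voom turned the Plk2 change in MkP to 1.30. Without both WT libraries high in Lars2, SF1 against WT in CD41-minus HSC changed sign for Bbc3, from -0.31 to 0.23, and for Bax, from 0.39 to -0.011, so no direction is claimed for them; Ccng1 went from 0.41 to 0.14 and Trp53inp1 from 1.01 to 0.64. The results tabulated under each alternative are Plk2 and members called under any setting, 29 values. The other 71 member values, never called, were left out of that table after it was seen that 106 of their 1016 alternatives had the other sign, so no direction is claimed for them. Of 1959 alternatives for passing genes outside the members, 1579 still passed, 380 did not and 0 changed sign. The number of all genes called also moved, from 1940 in CD41-minus HSC to between 282 and 6020 when 1 library was left out, and in LT-HSC from 9 to 500 with DESeq2.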
